A study of Rattus norvegicus with 12 samples.

Results

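The extracellular matrix genes described here are the collagens, the laminins and a set of matrix proteoglycans and glycoproteins, measured in cultured neonatal rat heart cells exposed to DEHP, the phthalate ester di(2-ethylhexyl) phthalate, which softens polyvinyl chloride. Members were taken by gene symbol from the probe sets with exactly 1 symbol: the collagen chains, the laminin chains and 18 genes named one by one. The rule used no measured value, but it was set with earlier results of these data known. They came to 45 of 14324 genes, on 47 of 27342 probe sets, made up of 25 collagen genes on 27 probe sets, 7 laminin genes and 13 of the 18 named genes. Hspg2, Tnc, Nid1, Thbs1 and Thbs2 were not analysed here. Collagen and laminin chains without such a probe set were also left out. Among them were Col4a2, Col6a1, Col6a2, Col15a1, Col18a1, Lama2, Lama4 and Lamb1. Col6a4 had 3 probe sets and each other member had 1.

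Collagens are trimers of alpha chains. The fibrillar types I, III, V and XI build the tensile fibres of the interstitium, and fibril-associated types such as XII and XVI coat those fibres. Basement membranes, the thin sheets around each muscle cell and vessel, are built from networks of type IV collagen and of laminin (an alpha, a beta and a gamma chain), which nidogen and the proteoglycan agrin link. Small leucine-rich proteoglycans such as decorin and fibromodulin bind collagen fibrils and set their width, while versican and aggrecan are large, hyaluronan-binding chondroitin sulphate proteoglycans. In the heart, fibroblasts make most of the interstitial matrix, and muscle, endothelial and other cells contribute to the basement membrane.

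The series asked how gene expression depends on the dose of DEHP. Cells were isolated by enzymatic digestion from the hearts of Sprague-Dawley pups aged 2 days, plated on coverslips that the labels call laminated, cultured for 3 days and then treated for 3 days. The groups were DEHP at 1 µg/ml, 10 µg/ml and 50 µg/ml in 0.1% dimethyl sulphoxide (DMSO) and the vehicle, 0.1% DMSO, with 3 arrays in each of the 4 groups. All cells came from 1 litter, and the p-values take account only of differences between its cultures.

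Each value is the log2 of an array's ratio to its probe set's median across the 12 arrays, and a difference is the mean of a dose minus the mean of its comparison group, with its standard error and n = 3 arrays per group. The ratio was read as array over median, which is recorded in no source used here; read the other way, all the signs below would turn. The level of a probe set was lost in the ratio, so genes cannot be ranked by abundance, the distance from background is unknown, and the labelled cell type could not be checked from the levels of its markers. A probe set passed when its adjusted p from limma, over all 27342 probe sets, was under 0.05. Each dose was compared with the same 3 vehicle arrays, and fewer cells of a type cannot be told apart from less RNA per cell.

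The array of 10 µg/ml replicate 2 stood apart. Its log2 ratios over all probe sets had an SD of 0.170, against 0.0967 and 0.0881 for the other 10 µg/ml arrays, and it had the lowest array weight of the 12 (0.308). Some markers of the cell types a heart culture can hold also differed from the vehicle, most of them at 50 µg/ml. None of these markers passed at 10 µg/ml, where 0.00% of all probe sets did. All 13 cardiomyocyte markers had positive differences at that dose, with a median of 0.20. The unadjusted p from limma was under 0.05 for 9 of those 13, and for 1505 of the 27342 probe sets. Of 18 macrophage markers 15 had negative differences at 10 µg/ml and 3 positive, with a median of -0.16. At 50 µg/ml 17 of 18 macrophage markers were lower, with array medians of -1.08 to -0.95 at 50 µg/ml and 0.17 to 0.26 in the vehicle (Lyz2 -2.32 ± 0.13, Csf1r -1.78 ± 0.10 and Lcp1 -1.41 ± 0.07). Of 14 fibroblast markers outside the matrix, 1 was higher and 3 were lower, with array medians of -0.07 to -0.04 at 50 µg/ml and 0.02 to 0.04 in the vehicle (Mfap5 fell by 1.14 ± 0.06, Thy1 fell by 0.57 ± 0.08 and Cd34 rose by 0.44 ± 0.08). Higher and lower counts at 50 µg/ml were 5 and 1 of 11 for endothelial markers (Cdh5 0.57 ± 0.12, Sox18 0.33 ± 0.09, and Tie1 at 0.14 ± 0.11, which did not pass), with array medians of 0.19 to 0.26 at 50 µg/ml and -0.03 to 0.03 in the vehicle. They were 4 and 5 of 13 for smooth muscle and pericyte probe sets (Abcc9 1.09 ± 0.07 and 0.99 ± 0.07 on its 2 probe sets, Rgs5 -0.78 ± 0.06, Cspg4 -0.52 ± 0.06). For cardiomyocyte markers they were 8 and 1 of 13 (Myl7 1.45 ± 0.10, Myh6 0.63 ± 0.08, Myl2 0.56 ± 0.06). The cardiomyocyte array medians were 0.04 to 0.12 at 50 µg/ml and -0.22 to -0.01 in the vehicle. Of 10 epicardial probe sets 3 were higher (Upk1b 0.80 ± 0.13, Gpm6a 0.75 ± 0.14, and Wt1 at 0.17 ± 0.07, which did not pass), and of 5 glial and neuronal ones 1 was (Tubb3 0.27 ± 0.06, with Sox10 at 0.02 ± 0.06 and S100b at 0.03 ± 0.08). Over all probe sets 5.60% were higher and 6.60% lower at 50 µg/ml. The part of these marker shifts in the matrix results was not tested.

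At 50 µg/ml 13 of the 47 matrix probe sets (27.7%) differed from the vehicle, 4 of them higher and 9 lower. Over all probe sets 5.60% were higher and 6.60% lower. The 4 genes that rose were Fmod, which encodes fibromodulin, and the basement membrane chain genes Col4a4, Lamb3 and Lama1. The 9 that fell were the proteoglycan genes Vcan, Acan and Aspn, the collagen genes Col12a1, Col5a2, Col8a1 and Col11a1, Nid2, which encodes the laminin and collagen linker nidogen-2, and Fn1, which encodes the cell-adhesion glycoprotein fibronectin. The median difference over the 47 was 0.01, against 0.02 over all probe sets, so the members did not move one way as a whole. Arrays of the groups did not overlap for 9 members on the higher side and 14 on the lower side, where the shares over all probe sets were 17.1% and 14.3%.

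**Figure D1:**
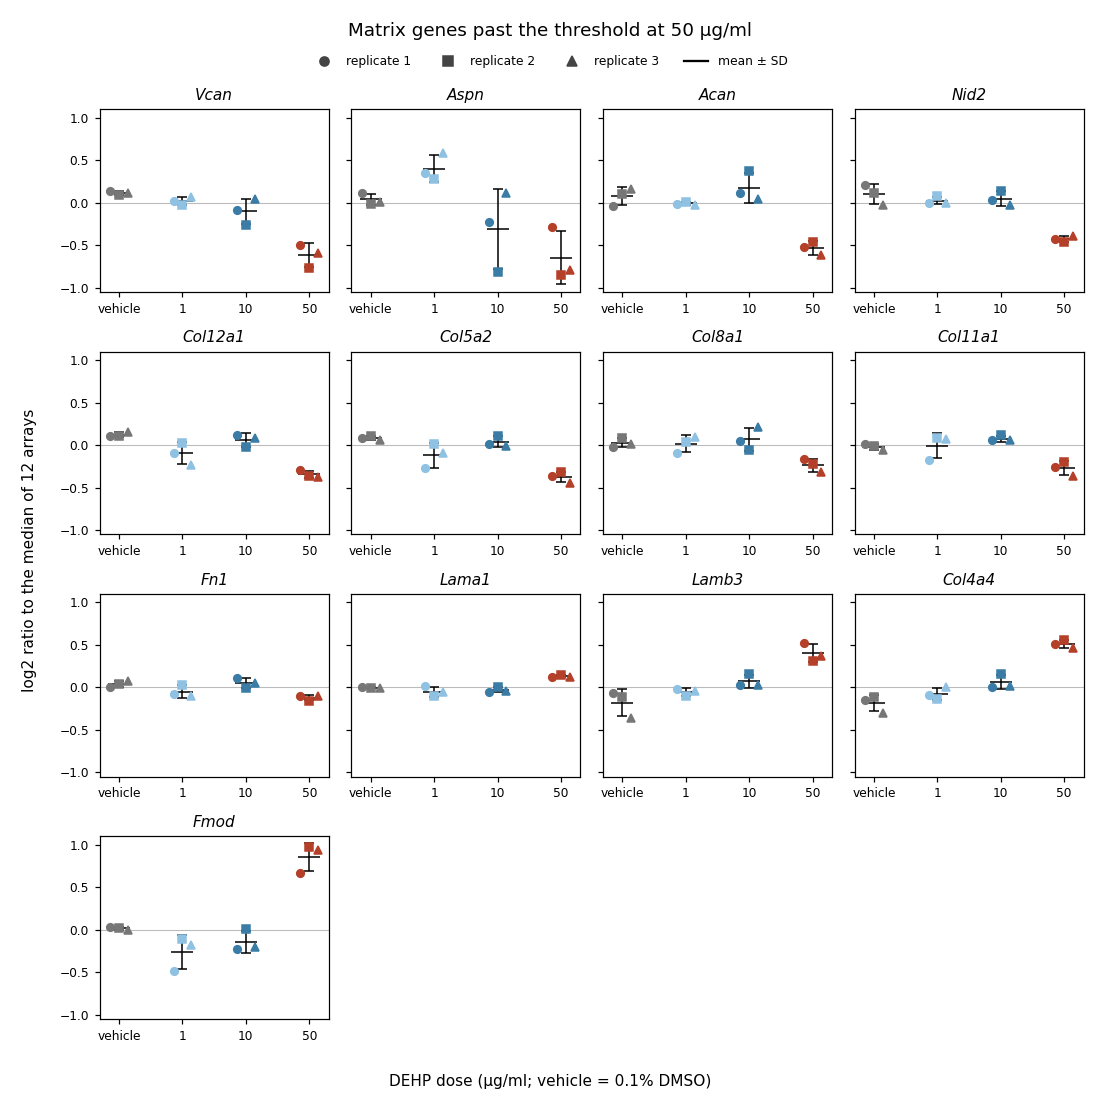
The 13 matrix genes past the threshold between 50 µg/ml and the vehicle. The vertical axis is the log2 ratio of each array to the probe set's median over 12 arrays, the horizontal axis is the DEHP dose, symbols mark the replicate number, and bars show the mean ± SD of 3 arrays. In each panel the 3 arrays at 50 µg/ml lie on one side of the 3 vehicle arrays, by most for Fmod (0.84 higher) and Vcan (-0.73).

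The interstitial proteoglycans moved in both directions, with 1 rise and 3 falls among 8 probe sets. Fmod stood at 0.67, 0.97 and 0.94 in the 50 µg/ml cultures, against 0.04, 0.02 and -0.005 in the vehicle cultures, a difference of 0.84 ± 0.10 or 1.79-fold (adjusted p = 0.000285). At the lower doses it stood at -0.49, -0.12 and -0.18 (1 µg/ml) and at -0.23, 0.005 and -0.20 (10 µg/ml), so all 3 arrays at 50 µg/ml were above all 9 others. Vcan, the versican gene, stood at -0.49, -0.77 and -0.59 at 50 µg/ml, against 0.14, 0.09 and 0.11 in the vehicle, and fell by 0.73 ± 0.08 (adjusted p = 0.000106). Its arrays at 50 µg/ml were likewise below each of the other 9, the nearest of which was 10 µg/ml replicate 2 at -0.26. Acan, the aggrecan gene, stood at -0.52, -0.46 and -0.62 at 50 µg/ml and at -0.04, 0.11 and 0.17 in the vehicle, and fell by 0.61 ± 0.08 (adjusted p = 0.000456).

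Aspn, which encodes asporin, a small leucine-rich proteoglycan that binds collagen, stood at -0.29, -0.85 and -0.79 at 50 µg/ml, against 0.12, -0.01 and 0.01 in the vehicle. The groups did not overlap, but the 3 treated arrays lay far apart, and the fall of 0.68 ± 0.20 only just passed (adjusted p = 0.0479); it did not pass under 12 of 20 other settings. Lum, the gene of the related lumican, stood at -0.05, -0.39 and -0.35 at 50 µg/ml and at 0.06, -0.05 and 0.11 in the vehicle. Its difference of -0.31 ± 0.13 did not pass (adjusted p = 0.154), although it did once 10 µg/ml replicate 2 was left out of the fit. Other members of the family did not pass: biglycan (Bgn) differed by 0.01 with a 95% interval of -0.08 to 0.10, decorin (Dcn) by 0.10 (-0.09 to 0.30) and osteoglycin (Ogn) by 0.21 (-0.05 to 0.47).

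Among 12 basement membrane members 3 rose and 1 fell. Col4a4, a chain of the type IV collagen network that is best known from the kidney filter, stood at 0.50, 0.56 and 0.46 at 50 µg/ml, against -0.15, -0.12 and -0.30 in the vehicle, and rose by 0.69 ± 0.06 or 1.62-fold (adjusted p = 2.48e-05). This was the smallest adjusted p of any member. Lamb3, the beta chain of an epithelial laminin, stood at 0.52, 0.32 and 0.37 at 50 µg/ml and at -0.07, -0.11 and -0.36 in the vehicle, and rose by 0.58 ± 0.08 (adjusted p = 0.00047). Lama1, the alpha chain of a laminin of early embryonic basement membranes, stood at 0.13, 0.14 and 0.12 at 50 µg/ml and at 0.004, -0.01 and -0.004 in the vehicle. Its rise of 0.13 ± 0.04 was small and close to the threshold (adjusted p = 0.0482), and it did not pass under 16 of 20 other settings.

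Nid2 moved the other way: its values were -0.43, -0.46 and -0.39 at 50 µg/ml, against 0.21, 0.12 and -0.02 in the vehicle, a fall of 0.53 ± 0.06 (adjusted p = 0.000187). The chains of more widespread basement membranes that were among the members did not pass, and neither did Lama3 (-0.05), Lamc3 (0.12) or Col4a3 (0.24). Other widespread chains, such as Col4a2, Lama2, Lama4 and Lamb1, were not among the members. Col4a1, a chain of the ubiquitous type IV network, differed by 0.06 (95% interval -0.08 to 0.20), and the laminin genes Lama5 by 0.12 (-0.01 to 0.24), Lamb2 by 0.11 (-0.02 to 0.23) and Lamc1 by -0.13 (-0.23 to -0.04; adjusted p = 0.0763). The 3 arrays at 50 µg/ml lay above the vehicle arrays for Lama5 and Lamb2 and below them for Lamc1, the gamma chain that most laminins share. The agrin gene Agrn, whose product clusters acetylcholine receptors and binds dystroglycan, differed by -0.02 (-0.20 to 0.16).

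Of 10 fibrillar collagen probe sets 2 fell and 8 did not pass. Col5a2, a chain of the type V collagen that starts fibril assembly, stood at -0.36, -0.32 and -0.45 at 50 µg/ml and at 0.08, 0.11 and 0.06 in the vehicle, and fell by 0.46 ± 0.07 (adjusted p = 0.000836). Its partner chain Col5a1 differed by -0.09 (95% interval -0.27 to 0.09) and did not pass. Col11a1, a chain of the related type XI, stood at -0.26, -0.20 and -0.36 at 50 µg/ml, against 0.007, -0.007 and -0.06 in the vehicle, and fell by 0.25 ± 0.07 (adjusted p = 0.0304). The bulk collagens showed little difference: Col1a1 averaged 0.01 ± 0.02 at 50 µg/ml and 0.01 ± 0.02 in the vehicle (SD), with a difference of 0.01 (-0.10 to 0.11). For Col3a1 the difference was -0.03 (-0.13 to 0.08), and for Col1a2, whose treated arrays (-0.09, -0.05 and -0.11) all lay below the vehicle arrays (0.0004, 0.008 and 0.02), it was -0.09 (-0.20 to 0.01).

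Of 5 fibril-associated collagens 1 fell. Col12a1, whose product bridges fibrils in tissues under tension, stood at -0.29, -0.36 and -0.38 at 50 µg/ml and at 0.11, 0.10 and 0.15 in the vehicle, a fall of 0.47 ± 0.06 (adjusted p = 0.000501). Col8a1, a short-chain network collagen of vessel walls, had values of -0.17, -0.23 and -0.32 at 50 µg/ml against -0.02, 0.08 and 0.02 in the vehicle, and fell by 0.26 ± 0.07 (adjusted p = 0.0356). It was the 1 of 9 probe sets of the remaining collagens that passed. The 3 Col6a4 probe sets did not go the same way, at 0.13, -0.09 and -0.10. Fn1 was at -0.10, -0.16 and -0.10 at 50 µg/ml, against 0.006, 0.04 and 0.07 in the vehicle, and its fall of 0.16 ± 0.05 was close to the threshold (adjusted p = 0.0445). The other matrix glycoproteins did not pass: Sparc, a collagen-binding protein, differed by 0.01 (95% interval -0.07 to 0.09) and had the smallest spread between replicates of all 47, and periostin (Postn), a product of activated fibroblasts, differed by 0.11 (-0.09 to 0.32).

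Acan, Col12a1, Col4a4, Col5a2, Fmod, Lamb3, Nid2 and Vcan passed under each of the 20 other settings tried. Those 8 were the whole count without vehicle replicate 1, 2 or 3, without 50 µg/ml replicate 3, and after a repeated quantile normalization. That normalization brought the rise of Fmod to 0.56. It was run on the log2 ratios and gave all arrays the same distribution. Before it their SDs were 0.166 to 0.199 at 50 µg/ml and 0.0869 to 0.0918 in the vehicle. Col11a1, Col8a1 and Fn1 did not pass under 6, 7 and 11 of the 20 settings. Without 50 µg/ml replicate 1 Col4a3 and Col23a1 also passed.

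**Figure D2:**
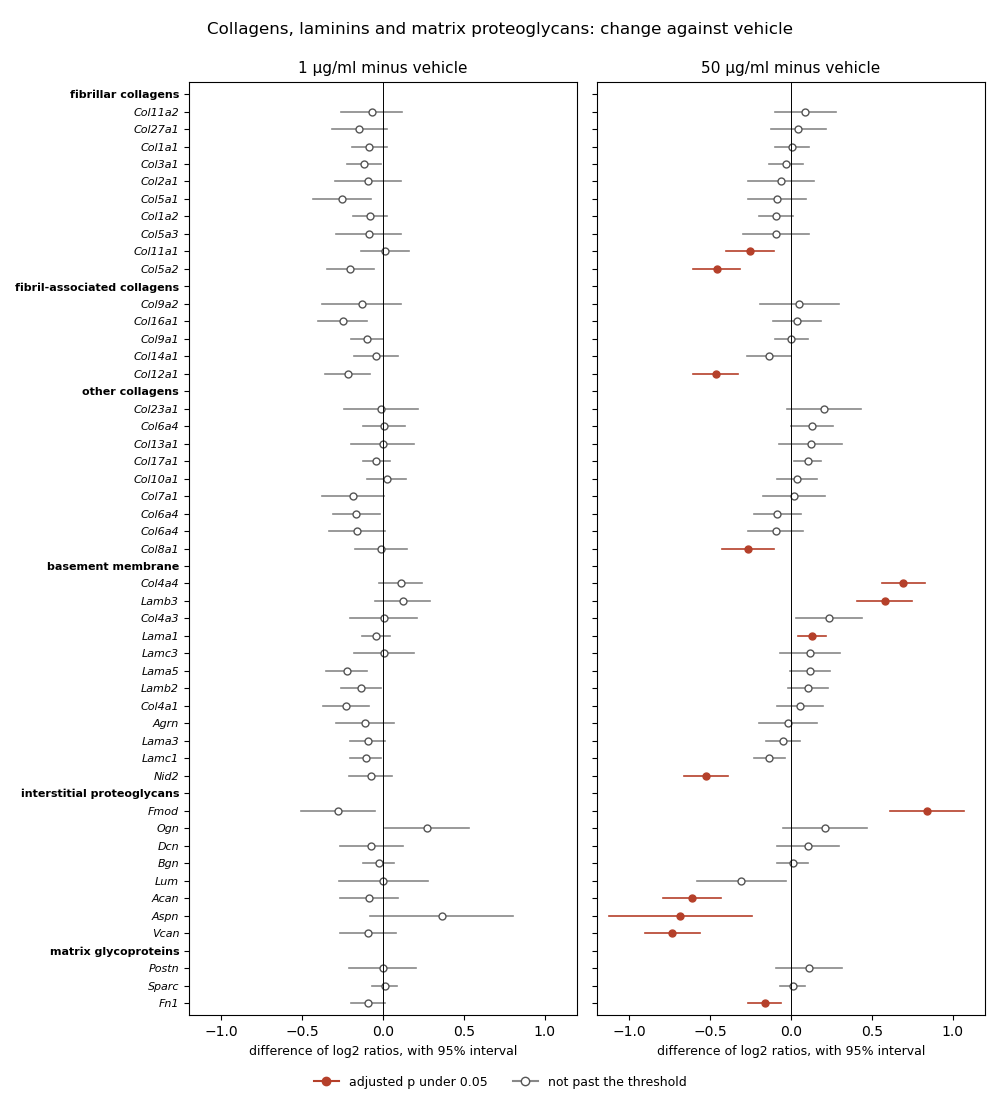
Differences from the vehicle for all 47 matrix probe sets at 1 µg/ml (left) and 50 µg/ml (right), grouped by family. Points are differences of mean log2 ratios and bars their 95% intervals, filled where the adjusted p was under 0.05. At 50 µg/ml 13 points are filled on both sides of 0, and at 1 µg/ml none is filled while 36 of 47 points lie below 0.

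Sequences upstream of Fmod, Vcan, Col4a4 and Acan, which had the largest differences at 50 µg/ml among the 8 genes that passed under each setting tried, are shown for reference, with that of Col4a3, the neighbour of Col4a4. They are the 250 bases before the annotated start, from RefSeq on the rat assembly GRCr8, written along the gene's own strand. Fmod lies at chr13:48045317-48045566 (plus strand), Col4a4 at chr9:91323578-91323827 (minus), Col4a3 at chr9:91323740-91323989 (plus), Vcan at chr2:22595956-22596205 (minus, the first of its 2 entries) and Acan at chr1:142390701-142390950 (plus). Capitals mark a CCAAT box (CCAAT) or a GC box (GGGCGG) on either strand.
Fmod: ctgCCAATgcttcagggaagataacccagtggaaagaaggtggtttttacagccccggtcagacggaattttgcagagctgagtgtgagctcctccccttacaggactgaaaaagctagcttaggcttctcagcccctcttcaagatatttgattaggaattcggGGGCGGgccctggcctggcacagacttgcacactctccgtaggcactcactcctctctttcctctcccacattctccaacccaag
Col4a4: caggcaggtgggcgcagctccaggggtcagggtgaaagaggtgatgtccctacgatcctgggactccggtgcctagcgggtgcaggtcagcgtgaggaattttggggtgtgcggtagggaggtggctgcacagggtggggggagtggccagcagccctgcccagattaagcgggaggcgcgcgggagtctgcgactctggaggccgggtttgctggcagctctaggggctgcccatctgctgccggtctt
Col4a3: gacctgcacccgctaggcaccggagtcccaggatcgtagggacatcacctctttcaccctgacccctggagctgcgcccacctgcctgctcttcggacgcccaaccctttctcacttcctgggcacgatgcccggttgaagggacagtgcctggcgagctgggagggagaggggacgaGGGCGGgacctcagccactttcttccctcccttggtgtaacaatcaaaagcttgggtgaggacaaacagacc
Vcan: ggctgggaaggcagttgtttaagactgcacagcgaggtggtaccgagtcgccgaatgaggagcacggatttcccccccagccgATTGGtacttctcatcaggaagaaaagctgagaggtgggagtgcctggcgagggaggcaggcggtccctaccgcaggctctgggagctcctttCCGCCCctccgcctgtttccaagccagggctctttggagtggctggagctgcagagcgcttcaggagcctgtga
Acan: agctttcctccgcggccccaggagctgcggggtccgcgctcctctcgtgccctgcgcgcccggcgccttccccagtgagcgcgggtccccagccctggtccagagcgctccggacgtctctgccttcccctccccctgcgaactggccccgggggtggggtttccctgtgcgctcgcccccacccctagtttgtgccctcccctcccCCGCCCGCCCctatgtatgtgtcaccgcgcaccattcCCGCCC

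The GC box was in 50.0% of the 36 member windows found (35 genes) and in 30.5% of all 33469 windows of this length. The other motifs searched on both strands were the CCAAT box (30.6% of member windows, 34.0% of all), the TATA box TATAAA (16.7% and 12.9%) and the AP-1 site TGANTCA (2.78% and 6.34%). By gene, a GC box was in 1 of the 4 that rose at 50 µg/ml and in 4 of the 6 with a window that fell, where the overlapping windows of Vcan hold the same box. In the Acan window 2 of the 3 GC boxes share bases. A match describes these letters only.

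Col4a4 and Col4a3 start head to head, 412 bases apart, so that their upstream windows share 88 bases. The pair is expressed together in known basement membranes, and the values here differed between them. Col4a3 stood at -0.03, 0.42 and 0.15 at 50 µg/ml and at -0.09, -0.10 and 0.02 in the vehicle, a difference of 0.24 ± 0.09 that did not pass (adjusted p = 0.144), whereas the 3 Col4a4 arrays at 50 µg/ml were all above 0.4. Col5a2 and Col3a1 are also direct neighbours, and of them Col5a2 fell while Col3a1 differed by -0.03. The difference between the genes of a pair was not tested.

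At 1 µg/ml 0 of 47 members passed against the vehicle in limma, where 3.27% of all probe sets did, and 12 members had an unadjusted p under 0.05, as did 5082 of the 27342 probe sets. Most values were nevertheless below the vehicle: 36 of 47 differences were negative, with a median of -0.08, against 14757 negative and a median of -0.01 over all 27342 probe sets. The 3 treated arrays lay below the 3 vehicle arrays for 19 members and above them for 2, where 14.5% and 13.9% of all probe sets did so. Lama5, the alpha chain of an endothelial and epithelial laminin, stood at -0.34, -0.15 and -0.34 at 1 µg/ml, against -0.04, -0.03 and -0.08 in the vehicle, a difference of -0.22 ± 0.06 (adjusted p = 0.0562). Col4a1 stood at -0.32, -0.14 and -0.29 at 1 µg/ml and at -0.07, 0.01 and -0.01 in the vehicle, a difference of -0.23 ± 0.06 (adjusted p = 0.0809). In both genes every treated array was lower than every vehicle array.

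The medians at 1 µg/ml were -0.09 over the 10 fibrillar and -0.13 over the 5 fibril-associated collagens, and single genes ran lower without passing. Col16a1 stood at -0.36, -0.19 and -0.23 at 1 µg/ml, against -0.06, -0.04 and 0.07 in the vehicle (difference -0.25, adjusted p = 0.0719). Col12a1 differed by -0.22 (adjusted p = 0.0835) and Col5a1 by -0.25 (adjusted p = 0.117), again with no overlap of the groups. These 5 genes passed when 10 µg/ml replicate 2 was left out of the fit, which changed the shared estimate of spread and not the differences. Col12a1 and Lama5 passed without 1 µg/ml replicate 2. At 1 µg/ml 3 of 11 endothelial markers were also lower (Cdh5 -0.66, Tie1 -0.59 and Sox18 -0.47), with array medians of -0.36 to -0.19 at 1 µg/ml and -0.03 to 0.03 in the vehicle. Of the fibroblast markers 1 of 14, and of the macrophage markers 1 of 18, were lower too, where 1.68% of all probe sets were. The part of these markers in the matrix values was not tested.

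The 2 members above the vehicle in all arrays at 1 µg/ml were Aspn and Ogn, small proteoglycan genes with 1 coding gene between them. Aspn stood at 0.35, 0.28 and 0.58 at 1 µg/ml, against 0.12, -0.01 and 0.01 in the vehicle, a difference of 0.36 ± 0.20 (adjusted p = 0.379). Ogn stood at 0.12, 0.13 and 0.18 at 1 µg/ml and at -0.14, -0.09 and -0.16 in the vehicle, a difference of 0.27 ± 0.12 (adjusted p = 0.25). Neither passed in the fit over 12 arrays, in which the 10 and 50 µg/ml groups had SDs of 0.47 and 0.31 for Aspn and 0.30 and 0.14 for Ogn. Both passed in a fit of the 1 µg/ml and vehicle arrays alone.

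At 10 µg/ml 0 of 47 members passed against the vehicle, as did 0.00% of all probe sets, and 4 members had an unadjusted p under 0.05, as did 1505 of the 27342 probe sets. The count was 0 under each other setting tried. The 3 genes whose replicates spread most, Aspn, Lum and Ogn (residual SDs of 0.293, 0.179 and 0.168, the last above 95.6% of all probe sets), were lowest at this dose in replicate 2. Aspn stood at -0.23, -0.81 and 0.11 at 10 µg/ml, Ogn at -0.16, -0.53 and 0.06, and Lum at 0.08, -0.41 and 0.09. Postn and Dcn were low in the same array, at -0.29 and -0.26, while Col5a1, Col4a1 and Col16a1 were high in it, at 0.33, 0.24 and 0.24. Replicate 2 at 50 µg/ml was the lowest of its group for Aspn and Lum as well.

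**Figure D3:**
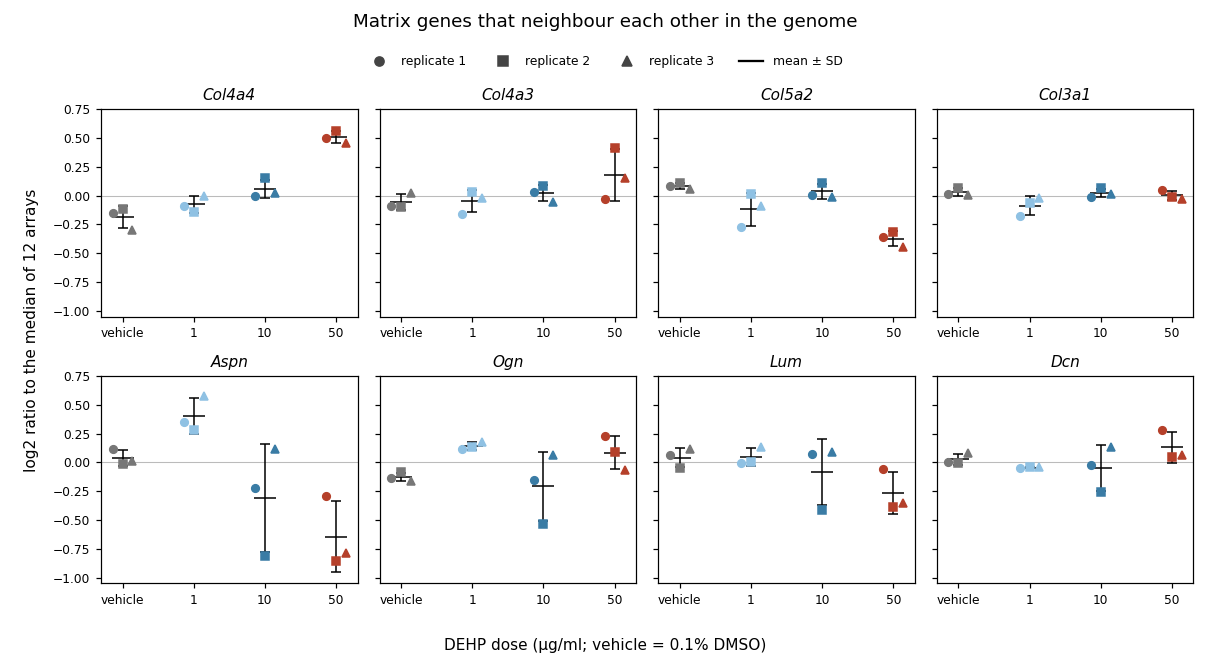
Pairs of matrix genes that lie next to each other in the genome, or with 1 coding gene between them (Aspn and Ogn). The vertical axis is the log2 ratio to the median of 12 arrays, the horizontal axis is the DEHP dose, symbols mark replicates and bars show the mean ± SD of 3 arrays. Col4a4 and Col5a2 separate at 50 µg/ml where Col4a3 and Col3a1 do not, and Aspn, Ogn, Lum and Dcn are each lowest within the 10 µg/ml group in replicate 2.

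Between the lower doses, 10 against 1 µg/ml, 5 members were higher and 1 was lower, where 4.25% and 5.70% of all probe sets were. Lama5 stood at 0.03, 0.17 and 0.08 at 10 µg/ml and rose by 0.37 ± 0.06 over 1 µg/ml (adjusted p = 0.00408). Col4a1 stood at 0.06, 0.24 and 0.02 at 10 µg/ml and rose by 0.36 ± 0.06 (adjusted p = 0.00861). Col16a1 rose by 0.35 ± 0.07 (adjusted p = 0.0121), Col5a1 by 0.37 ± 0.08 and Lamb2 by 0.25 ± 0.06 (both adjusted p = 0.0185). Lama5, Col4a1 and Lamb2 were 3 of the 12 basement membrane members. Of all 47 differences 39 were positive, with a median of 0.12, against 15225 positive and a median of 0.01 over the 27342 probe sets. Aspn fell by 0.71 ± 0.20 (adjusted p = 0.0472), but it did not pass under 13 of 20 other settings, and without 10 µg/ml replicate 2 its difference was -0.46. Without 10 µg/ml replicate 2 the count was 3 (Col16a1, Col4a1 and Lama5), as it was without 1 µg/ml replicate 1 or 3, and without 10 µg/ml replicate 3 it was 11.

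**Figure D4:**
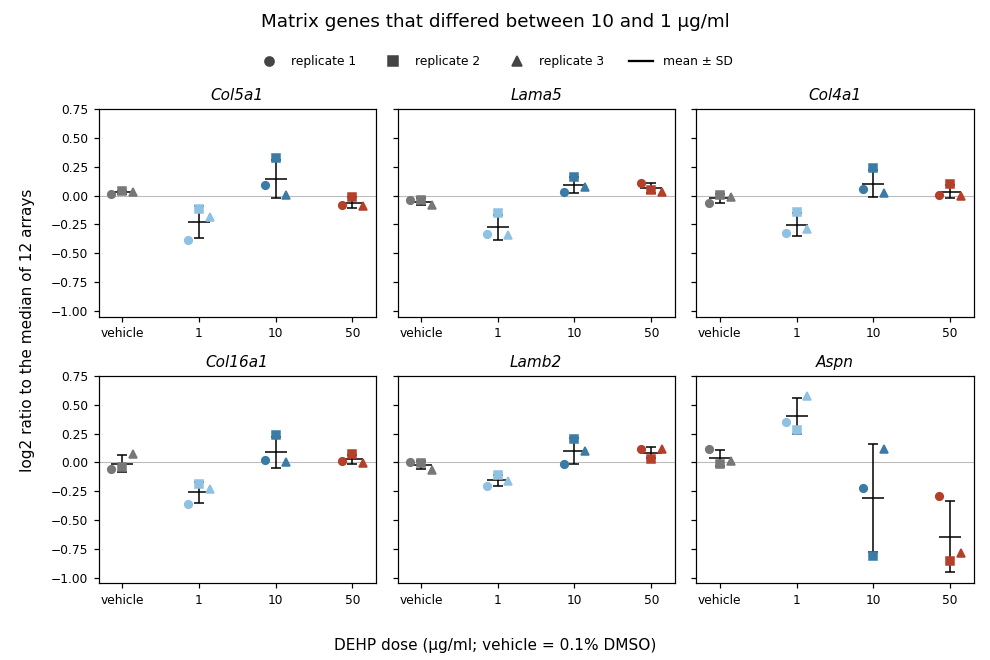
The 6 matrix genes past the threshold between 10 and 1 µg/ml. The vertical axis is the log2 ratio to the median of 12 arrays, the horizontal axis is the DEHP dose, symbols mark replicates and bars show the mean ± SD of 3 arrays. Col5a1, Lama5, Col4a1, Col16a1 and Lamb2 are lowest at 1 µg/ml in all 3 arrays, and Aspn is highest there.

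The highest dose was also set against the lower ones. Against 10 µg/ml, Col4a4, Fmod, Lama1 and Lamb3 were higher at 50 µg/ml (4 of 47 members; over all probe sets 4.99%). Another 9 were lower (over all probe sets 5.58%), namely Acan, Col11a1, Col12a1, Col5a2, Col8a1, Fn1, Lamc1, Nid2 and Vcan. Without 10 µg/ml replicate 1 this total of 13 became 8. Lamc1 did not pass under 15 of 20 other settings, Fn1 under 13, Lama1 under 7, Col8a1 under 5 and Lamb3 under 4. The rest of the 13 passed under each. Against 1 µg/ml 9 members were higher and 8 lower, where 8.36% and 9.45% of all probe sets were. The higher ones held Col16a1, Col17a1, Col4a1, Lama5 and Lamb2 beside Col4a4, Fmod, Lama1 and Lamb3, and the lower ones were Acan, Aspn, Col11a1, Col12a1, Col5a2, Col8a1, Nid2 and Vcan. Fmod rose by 1.12 ± 0.10 over 1 µg/ml, and Aspn, which had its highest values there, fell by 1.05 ± 0.20. Against 1 µg/ml Col17a1 did not pass under 7 of the 20 settings, Col11a1, Col12a1, Col5a2 and Col8a1 under 5 each, and Col16a1 under 2. Both comparisons of 50 µg/ml with a lower dose share arrays with those against the vehicle.

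Over the 4 groups together 17 members (36.2%) passed the moderated F test, where 19.0% of all probe sets did. They were 12 of the 13 genes that differed at 50 µg/ml, all except Fn1, together with Lama5, Lamb2, Col4a1, Col16a1 and Col5a1. In dose order the mean of Vcan was 0.12 in the vehicle, 0.02 at 1 µg/ml, -0.10 at 10 µg/ml and -0.62 at 50 µg/ml. Col4a4 ran upward through the same groups, at -0.19, -0.08, 0.06 and 0.51. For both genes the steps below 50 µg/ml did not pass. Fmod had another shape, at 0.02, -0.26, -0.14 and 0.86, and Lama5 was low at 1 µg/ml alone, at -0.05, -0.28, 0.09 and 0.07.

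Genes that process, bind or decorate the matrix were taken as 3 lists. Beside the counts of each list stand the shares over all probe sets at 50 µg/ml, 5.60% higher and 6.60% lower. Of 30 probe sets of collagen processing and crosslinking enzymes, 4 were higher and 5 lower at 50 µg/ml. Tgm2, a crosslinking transglutaminase, rose by 0.78 ± 0.08. P3h2, a prolyl hydroxylase with a known preference for type IV collagen, fell by 0.88 ± 0.10, and P4ha3, a catalytic subunit of prolyl hydroxylase, fell by 0.43 ± 0.06. P4ha2, another such subunit, rose by 0.29 ± 0.05. The lysyl oxidases Lox and Loxl3, which crosslink collagen, were among those that fell (-0.33 and -0.38), and the procollagen proteinase Bmp1 was among those that rose (by 0.14). Of 19 matrix receptors 2 fell, the collagen-binding integrin Itga1 by 0.50 ± 0.07 and the hyaluronan receptor Cd44 by 0.27 ± 0.05, while the fibronectin receptor Itga5 differed by 0.12 ± 0.06 and did not pass. Of 27 probe sets for glycosaminoglycan synthesis 4 were higher and 2 lower. B3gat3, which completes the linker of the sugar chain, rose by 0.32 ± 0.06, the chondroitin polymerising factor Chpf rose by 0.26 ± 0.07, and the heparan sulphate sulphotransferase Hs6st1 fell by 0.24 ± 0.07. The medians of the 3 lists at 50 µg/ml were 0.03, -0.03 and 0.02, against 0.02 over all probe sets.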

How the data were processed

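RNA of 12 cultures, 3 in each of 4 groups, was measured on Affymetrix arrays from 5 µg of total RNA each, per the labels' protocols. RMA is named by the submitters' processing notes, with its version not given in the sources used here. What the authors deposited is a linear ratio, read here as each array's value over its probe set's median across the 12 arrays: the log2 midpoint of the 6th and 7th value was 0 within 1e-06 in all 27342 probe sets. Scale and centring were found from the values, and the direction is unknown. Array medians lay between 0.994 and 1.01.

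Gene names came from the platform annotation (15097 with 1 symbol, 323 with several, 11922 with none). All 45 member symbols were found in the GRCr8 gene table. Group means of the log2 ratios were estimated from the 12 arrays together by limma 3.58.1 (R 4.3.3), with empirical Bayes moderation. Tests were two-sided, with Benjamini-Hochberg adjustment across the 27342 probe sets and a threshold of 0.05. The number of arrays limits the precision, and the median residual SD was 0.0805. The fit was also run on simulated data with independent noise of equal spread on every array. The real arrays did not have equal spread, and no result here rests on that run. Dim probe sets could not be filtered out, since the ratios hold no level.

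Members and lists were chosen with earlier results of these data known. Named with values were members past the threshold against the vehicle, a panel of matrix genes, and the 3 genes of smallest F p in each list. Other enzymes and all other members named, such as Col16a1 and those named for spread or position, were chosen after their values were seen. Replicate numbers were not taken as pairs, since deviations of same-numbered arrays correlated at -0.226 to 0.395 and only 4 of 18 pairs were over 0.1. Alternatives were a repeated quantile normalization, median centring, robust moderation, array weights, the replicate number as a block, fits of only the groups compared, gene means, and leaving out arrays.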

Additional observations from a re-analysis of the deposited data

How the results depend on the processing

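None of the 13 member differences past the threshold at 50 µg/ml changed sign under the 20 alternatives, and 8 of them passed in each. Leaving out 1 array at a time gave 8 to 14 members at 50 µg/ml against the vehicle, 0 each time at 10 µg/ml and 0 to 5 at 1 µg/ml. It gave 8 to 15 for 50 against 10 µg/ml, 12 to 20 for 50 against 1 µg/ml, 3 to 11 for 10 against 1 µg/ml and 12 to 19 for the F test. A repeated quantile normalization gave 8 members at 50 µg/ml against the vehicle, 4 at 1 µg/ml against the vehicle and 8 for 50 against 10 µg/ml. Array weights gave 5 at 1 µg/ml against the vehicle and 11 for 10 against 1 µg/ml. Fits of the compared groups alone gave 4 (Aspn and Ogn higher, Col16a1 and Col4a1 lower) and 1 (Lama5). Leaving out replicate 2 of both 10 and 50 µg/ml, chosen after seeing the data, gave 5 at 1 µg/ml. With the replicate number as a replicate block 10 members passed at 50 µg/ml and 1 (Col4a1) at 1 µg/ml, against 13 and 0 without it; the labels do not state that the numbers pair cultures. These member counts are given without the shares over all probe sets under the same settings, which can change too. The causes of the changes were not tested.

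Aspn, Col11a1, Col8a1, Fn1 and Lama1 failed under 12, 6, 7, 11 and 16 of the 20 alternatives at 50 µg/ml. A further count covered the 28 probe sets that passed against the vehicle or were in the panel. Of 1420 values of their differences that did not pass in the fit over 12 arrays, 22 passed under some alternative. Col16a1, Col4a3 and Col23a1 were outside this count. With 3 cultures of 1 litter per group the number of arrays limits the precision, and without levels a low signal cannot be told apart from a stable one.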
